A study of Mus musculus with 12 samples.

Results

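Airway organoids repair a wound in their epithelium while embedded in a basement membrane extract, so the genes that cut and remodel matrix were examined for a response to the wound. The gene set held 9 genes, chosen by name from the 55401 genes of the table: the matrix metalloproteinases Mmp9, Mmp10, Mmp13 and Mmp14, the tissue inhibitors Timp1, Timp2 and Timp3, the plasminogen activator Plau and its receptor Plaur. The rule goes by gene name and sets no threshold on a measured value, and all 9 names were found once.

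Organoids were grown from airway epithelial cells of adult C57BL/6J wild-type mice, and the cells of every dish, controls included, carried a lentiviral Histone2A-mCherry reporter driven by the p63 promoter. Each of the 12 libraries stands for a dish of 45 organoids in unsupplemented FluoroBrite DMEM. In 6 dishes the femtosecond laser had removed 10 neighboring cells per organoid 4.5 h before harvest, and 6 dishes were left untreated. Dishes 1, 3, 4, 5, 6 and 7 of each group formed pairs of the same passage (P2+14 to P2+16) and culture day (14 to 20). Passages were shared between pairs as well, with pairs 1 and 3 at P2+14, 4 and 5 at P2+15, and 6 and 7 at P2+16. The tests take the 6 pairs as independent, which the shared passages limit. The libraries were numbered in 2 sets, with pairs 1, 3 and 5 in library set 1 and pairs 4, 6 and 7 in library set 2. The treatment label of controls 4, 6 and 7 says control while their titles contain the word ablation. These titles begin with the number and the letter C, as do those of controls 1, 3 and 5, and titles of ablation dishes lack the C. The dishes were taken as controls, and values within each library set are given for Timp3, Plau and Plaur. RNA was extracted from whole organoids, so cells at the wound and cells far from it were not separated. In such bulk samples, fewer cells of a type and less RNA per cell cannot be told apart. Whether the pairs came from separate mice is not given in the sources used here, and p-values measure the spread between dishes.

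Matrix metalloproteinases are zinc-dependent enzymes that are made as inactive precursors and cut collagens, laminins and other matrix or cell surface proteins. Tissue inhibitors of metalloproteinases bind the active enzymes and block them. In parallel, urokinase, the product of Plau, is held at the cell surface by its receptor and converts plasminogen to plasmin, a protease that degrades fibrin and matrix and can activate metalloproteinase precursors. In epithelial wounds these systems are known to act at the migrating edge, and several of their genes are known targets of AP-1 transcription factors.

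The promoters of 3 members are shown because they hold the letters of an AP-1 site. RefSeq promoter windows (GRCm38.p6, 250 bases before to 50 bases after the transcription start) were found for 7 of the 9 members, Mmp10, Mmp13, Mmp14, Timp1, Timp2, Timp3 and Plaur, and were searched for TGANTCA, which reads the same on both strands. Of all 32851 windows of this length, 7.81% held a match, and of the 7 member windows 3 did. The match is printed in capitals. It began 35 bases before the start in Mmp13, 63 bases before it in Mmp10 and 69 bases before it in Plaur.
Mmp13 promoter, chr9:7272264-7272563, plus strand: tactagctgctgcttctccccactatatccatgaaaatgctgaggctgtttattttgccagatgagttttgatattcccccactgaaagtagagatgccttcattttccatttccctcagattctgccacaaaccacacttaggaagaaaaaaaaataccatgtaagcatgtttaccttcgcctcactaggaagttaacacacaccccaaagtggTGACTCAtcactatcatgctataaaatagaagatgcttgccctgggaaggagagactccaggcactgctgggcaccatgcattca
Mmp10 promoter, chr9:7502092-7502391, plus strand: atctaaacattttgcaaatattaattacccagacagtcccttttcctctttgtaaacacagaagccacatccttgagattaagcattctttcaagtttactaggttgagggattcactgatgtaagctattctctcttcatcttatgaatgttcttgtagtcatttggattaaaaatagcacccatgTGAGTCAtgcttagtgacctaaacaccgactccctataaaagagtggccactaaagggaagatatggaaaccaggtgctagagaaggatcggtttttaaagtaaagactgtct
Plaur promoter, chr7:24462233-24462532, plus strand: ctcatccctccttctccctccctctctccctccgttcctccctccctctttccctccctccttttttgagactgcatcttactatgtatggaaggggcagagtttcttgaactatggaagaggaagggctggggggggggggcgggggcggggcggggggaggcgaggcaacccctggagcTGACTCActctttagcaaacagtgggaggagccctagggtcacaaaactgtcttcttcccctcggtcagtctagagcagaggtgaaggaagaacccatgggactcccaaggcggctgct
The windows of Mmp14, Timp1, Timp2 and Timp3 did not hold these letters. Other forms of an AP-1 site were not searched for, so their absence was not shown. The matches are a description of sequence, and binding at them was not measured.

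The normalized counts of the libraries summed to between 27297950 and 28504390, and whole reads could be recovered for 9 of the 12 libraries (23631212 to 29775699 reads). The labelled cell type was checked by marker genes. Basal cell markers were abundant, with 6 genes summing to between 493444 and 636946 normalized counts per dish, and the 5 markers of the secretory list summed to between 52717 and 102126. Of the basal markers, Trp63 and Itga6 were higher after ablation in 6 of 6 pairs, as were 5.17% of the genes tested below. Itgb4 was lower in 6 of 6, as were 4.63%. Krt14, Krt5 and Ngfr were higher in 5, 4 and 2 pairs. In the paired model described below, 1 of the 6 basal markers had an adjusted p-value under 0.05 in limma, against 1.09% of all tested genes. Of the 4 secretory markers tested, 0 did. Most of the secretory sum came from Cyp2f2 (26191 to 78597 normalized counts) and Krt8 (21477 to 31146), while the product gene Scgb1a1 had no more than 9.65 in any dish. Krt8 was higher after ablation in 6 of 6 pairs, as were 5.17% of all tested genes. Scgb1a1 was higher in 3 pairs, and Cyp2f2, Scgb3a1 and Scgb3a2 in 2 each. The 3 multiciliated markers found summed to between 8.89 and 29.2, with 2.92 to 18.1 for Foxj1. Markers of other cell types that can make matrix proteases were lower by far, but several lay above the level of Mmp13. The 6 fibroblast markers summed to between 17.8 and 48.3 normalized counts, and Col1a2, Col3a1 and Lum did not exceed 1 normalized count in any dish. The 6 macrophage markers summed to between 179 and 342 after ablation and between 184 and 320 in the control, of which Itgam gave 57.9 to 185 and Cd68 88.8 to 158, while Adgre1 and Marco were at 0 in all 12 dishes. Of the 4 neutrophil markers, which summed to between 5.84 and 16.8, Ly6g had 5.84 to 13.6 normalized counts and Mpo and Elane were at 0 throughout. Of the 4 endothelial markers, which summed to between 3.95 and 16.4, Pecam1 had 2.82 to 13.3 and Kdr was at 0 throughout.

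Compared per length of exon, the levels of the 9 genes spanned several orders of magnitude. Mmp14 stood highest, with 1128 normalized counts per kb as the mean over 12 dishes, followed by Timp2 with 1038, Plau with 378, Timp3 with 364, Plaur with 270 and Timp1 with 106. Of the 13792 genes tested, 91.0% had a lower level per kb than Mmp14 and 90.0% a lower one than Timp2. The secreted metalloproteinases among the members were close to absent, with 2.10 normalized counts per kb for Mmp13, 0.803 for Mmp10 and 0.0663 for Mmp9. Mmp28 and Mmp2, secreted metalloproteinases outside the gene set, had 333 and 98.3. Not all neighbors in the order of the members were separated. Mmp14 exceeded Timp2 in 10 of 12 dishes, Plau exceeded Timp3 in 7, and Timp3 exceeded Plaur in 10, whereas Timp2 lay above Plau, Plaur above Timp1 and Timp1 above Mmp13 in all 12 dishes.

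**Figure D1:**
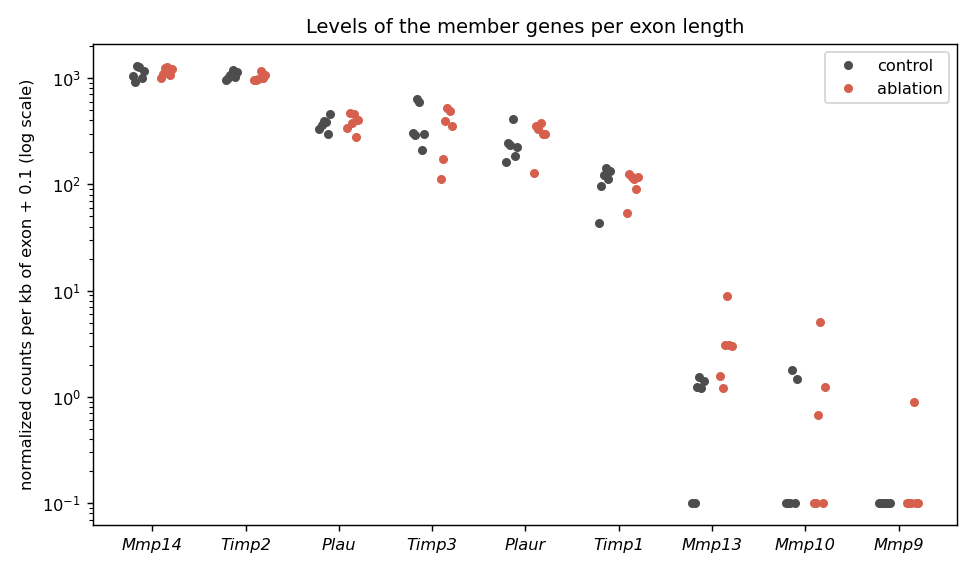
Normalized counts per kb of exon (plus 0.1, logarithmic axis) of the 9 member genes in the 6 control dishes (grey) and the 6 ablation dishes (red), ordered by their mean. Mmp14 and Timp2 lie near 1000, the middle group of Plau, Timp3 and Plaur overlaps, and Mmp13, Mmp10 and Mmp9 lie far below.

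The comparison of both groups asked whether ablation of 10 cells changed the expression of these genes within 4.5 h. Log2 values (normalized counts plus 1) were fitted with limma, with condition and library set as factors, for genes that reached 10 normalized counts in 6 dishes or more. Of the 9 members, 6 passed this minimum: Mmp14, the 3 inhibitors, Plau and Plaur. Mmp9, Mmp10 and Mmp13 did not. None of the 6 had an adjusted p-value under 0.05 in limma (adjusted p from 0.824 to 0.988), where 0% of all tested genes did, and none had an unadjusted p-value under 0.05, against 7.85% of all tested genes. In edgeR on the recovered reads of 9 dishes, 0 of the 6 passed, where 0% of all genes did, and 0 had an unadjusted p-value under 0.05, against 5.84% of all genes. In a paired model, in which the pair takes the place of the library set, 0 of the 6 passed (adjusted p from 0.324 to 0.915), against 1.09% of all genes, and 0 had an unadjusted p-value under 0.05, against 17.6% of all genes. None of the 6 was higher in all 6 pairs, against 5.17% of all tested genes, or lower in all 6, against 4.63%. Their groups overlapped in every case, while ablation lay entirely above the control for 0.247% of all tested genes and entirely below it for 0.21%. The median log2 fold change of the 6 members was 0.0034 and that of all tested genes was -0.0036.

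**Figure D2:**
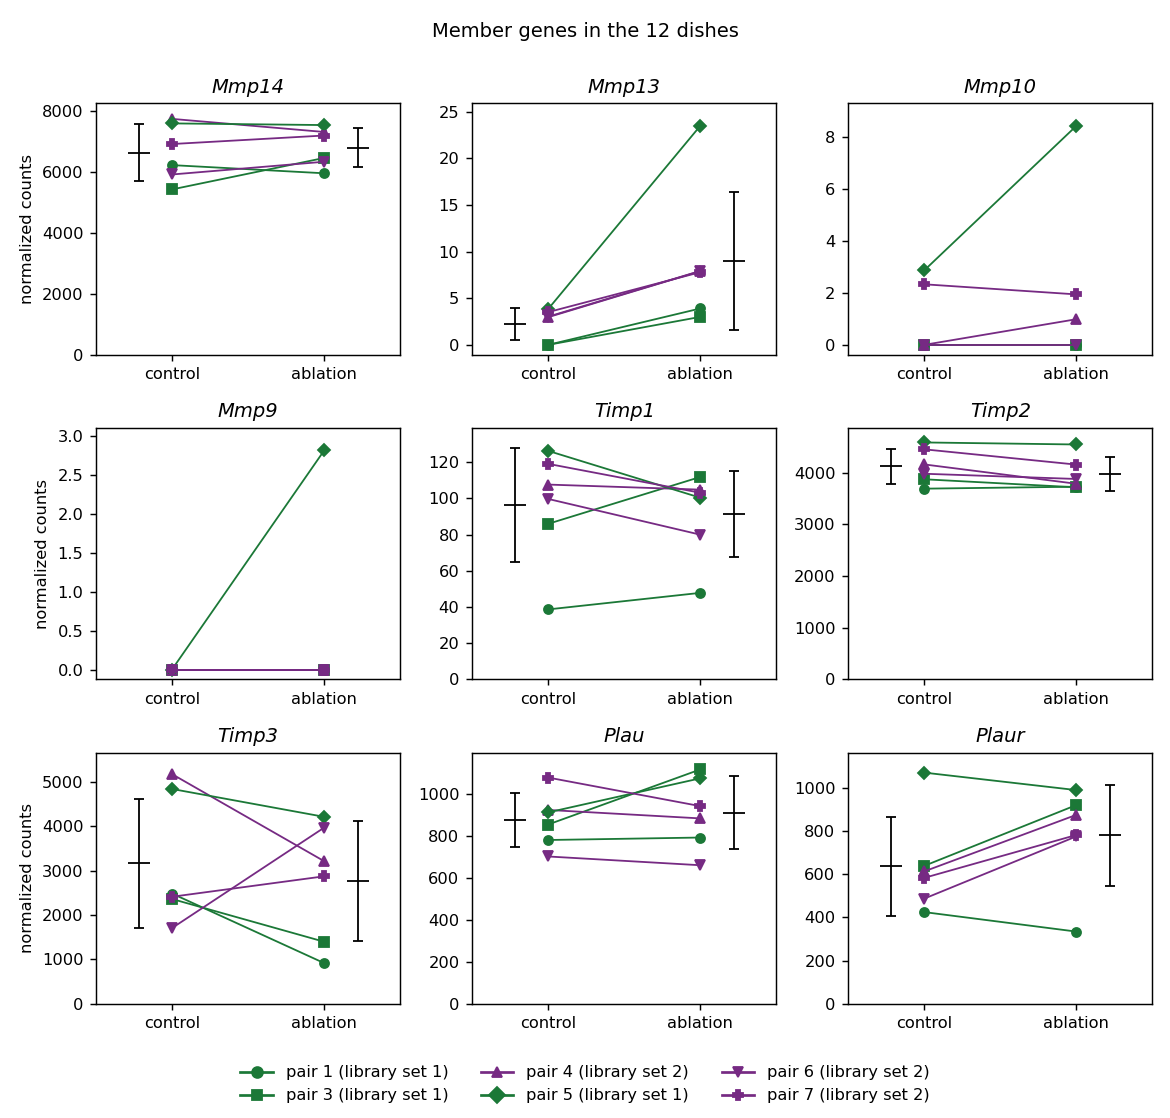
Normalized counts (vertical axes, linear) of each member in the control and ablation dishes. Lines join the dishes of a pair, green for library set 1 and purple for library set 2, and black bars give the mean and SD of 6 dishes, left out for Mmp9 and Mmp10. Lines of Mmp13 rise in all 6 pairs at very low counts, lines of Plaur rise in 4 of 6, and lines of Timp3 cross.

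Among the proteases, Mmp14 encodes a membrane-anchored metalloproteinase that cuts pericellular collagen and activates the precursor of MMP2. Mmp14 (ENSMUSG00000000957.11, GRCm38 chromosome 14 from 54431612 to 54445364, plus strand) ranged from 5961 to 7547 normalized counts in the ablation dishes, with a median of 6834, and from 5430 to 7750 in the controls, with a median of 6576. The groups overlapped over nearly their whole range, and 3 pairs were higher and 3 lower. Its mean was 6806 ± 635 normalized counts (SD, n = 6) in ablation dishes against 6643 ± 937 in controls. The log2 fold change was 0.04, with a 95% interval from -0.15 to 0.24 in limma (adjusted p = 0.938), which corresponds to a fold change between 0.900 and 1.18.

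Mmp13 encodes collagenase 3, a secreted enzyme that cuts fibrillar collagens. Mmp13 (ENSMUSG00000050578.10, chromosome 9 from 7272514 to 7283331, plus strand), whose promoter is the first of those printed, was the only member that was higher after ablation in all 6 pairs. Of 4994 genes that were under the minimum like Mmp13 and had a mean between 1 and 10 normalized counts, 1.62% were higher in all 6 pairs. This range reaches below the mean of Mmp13 (5.61 over the 12 dishes), and a pair with 0 in both dishes cannot count as higher. The share among genes at the level of Mmp13 was not computed. Mmp13 had 3.90, 3.00, 7.92, 23.5, 7.90 and 7.79 normalized counts in ablation 1, 3, 4, 5, 6 and 7. In the controls of the same numbers, it had 0, 0, 3.02, 3.83, 2.96 and 3.51 normalized counts. The groups overlapped slightly, since ablation 3 lay below 3 controls, and ablation 5 stood far above all other dishes. Mmp13 had a mean of 8.99 ± 7.42 normalized counts (SD, n = 6) in ablation dishes against 2.22 ± 1.75 in controls. In the 4 pairs for which whole reads were recovered in both dishes, these were 45 reads after ablation and 10 in the control, a ratio of 4.30 with an exact 95% interval from 2.14 to 9.57 that covers counting error only.

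The difference of Mmp13 in mean log2 value was 1.65, with p = 0.0108 in a two-sided exact permutation test of 6 dishes against 6 and p = 0.0312 when signs were flipped within pairs (two-sided exact permutation test, and the smallest value that 6 pairs allow). These p-values are not adjusted over genes, and they take dishes or pairs as independent although pairs share passages. Without pair 5 the mean was 6.10 normalized counts after ablation and 1.90 in the control, and the permutation p-value was 0.0238. When all genes with any count were fitted, the adjusted p-value of Mmp13 in limma was 0.557 in the library set model, where 0 of the 9 members and 0.0105% of all genes passed. The unadjusted p-value was under 0.05 for Mmp13 alone among the 9, against 6.01% of all genes. In the paired model the adjusted p-value of Mmp13 was 0.00938, where 1.25% of all genes passed. Mmp13 alone of the 9 members passed there, in a fit that was added after the data were seen. The macrophage markers did not move together. Csf1r was higher after ablation in 6 of 6 pairs (2.00 to 10.9 normalized counts against 0 to 3.95 in controls), Cd68 in 4, Itgam in 2 and Ptprc in 1, and Adgre1 and Marco were at 0. The part of such cells in the result of Mmp13 was not tested.

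Mmp10 encodes stromelysin 2 and Mmp9 gelatinase B, secreted metalloproteinases of wide matrix specificity. Mmp10 (ENSMUSG00000047562.3, chromosome 9 from 7502352 to 7510240, plus strand) was above 0 in 5 of 12 dishes, with 0.990, 8.45 and 1.95 normalized counts in ablation 4, 5 and 7 and 2.87 and 2.34 in controls 5 and 7. Its highest dish was again ablation 5. The exact permutation test over 6 against 6 dishes gave p = 0.697, and the ratio of recovered reads was 2.10 with an exact 95% interval from 0.674 to 7.72, so no difference was detectable at this depth. Mmp9 (ENSMUSG00000017737.2, chromosome 2 from 164940780 to 164955850, plus strand) had 2.82 normalized counts in ablation 5 and 0 in the other 11 dishes. A count of 0 allows up to 3 reads, which are worth between 2.82 and 3.51 normalized counts in these libraries, so the single value of Mmp9 lay within what a count of 0 allows.

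Mmp13 and Mmp10 belong to a cluster of 10 metalloproteinase genes on chromosome 9 between positions 7272514 and 7699585. The cluster as a whole was nearly silent in the organoids. Mmp1a, Mmp1b and Mmp8 were at 0 in all 12 dishes. Apart from Mmp13, the highest mean over 12 dishes was 2.33 normalized counts, for the macrophage elastase gene Mmp12, which reached 11.3 in ablation 5. Mmp3, which encodes stromelysin 1, was above 0 in 4 dishes, with 5.94, 3.75 and 1.95 normalized counts in ablation 4, 5 and 7 and 1.01 in control 4. When all genes with any count were fitted, it did not pass (adjusted p = 0.780 in limma, and 0.302 with pairs). Summed over the dishes of a group, Mmp12 had 18.1 normalized counts after ablation and 9.82 in the control. These sums were 16.5 and 10.8 for Mmp7, 4.88 and 0 for Mmp20, and 1.96 and 1.91 for Mmp27.

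None of the 3 inhibitors passed the test, and their log2 fold changes lay between -0.27 and -0.04. Timp2 encodes an inhibitor that also joins MMP14 in activating the precursor of MMP2. Timp2 (ENSMUSG00000017466.9, chromosome 11 from 118301069 to 118355740, minus strand) was the steadiest member, with a range from 3715 to 4544 normalized counts in the ablation dishes (median 3830) and from 3689 to 4584 in the controls (median 4068). The groups overlapped almost completely, although Timp2 was lower after ablation in 5 of 6 pairs. Its log2 fold change was -0.05 (95% interval from -0.20 to 0.09, adjusted p = 0.862 in limma). In the paired model the interval ran from -0.13 to 0.02 (adjusted p = 0.452).

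Timp1 encodes a secreted inhibitor of most metalloproteinases. Timp1 (ENSMUSG00000001131.11, chromosome X from 20870166 to 20874735, plus strand, inside the Syn1 gene without sharing its exons) ranged from 47.8 to 112 normalized counts in the ablation dishes, with a median of 102, and from 38.6 to 126 in the controls, with a median of 104. In both groups the dish of pair 1 was the lowest. Timp1 was higher in pairs 1 and 3 and lower in the other 4 pairs. The log2 fold change was -0.04 (95% interval from -0.62 to 0.54, adjusted p = 0.988 in limma), and its sign turned with pair 5 or 6 left out (0.024 and 0.021).

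Timp3 encodes the inhibitor that is bound to the matrix and also blocks ADAM17. Timp3 (ENSMUSG00000020044.13, chromosome 10 from 86300372 to 86349506, plus strand, inside the Syn3 gene and sharing exon sequence with it on the opposite strand) ranged from 918 to 4216 normalized counts in the ablation dishes, with a median of 3046, and from 1708 to 5180 in the controls, with a median of 2450. Its dishes differed 4.59-fold within the ablation group and 3.03-fold within the control. The pairs went apart as well: the ratio of ablation to control was 0.369 in pair 1, 0.592 in pair 3, 0.621 in pair 4 and 0.870 in pair 5, but 1.19 in pair 7 and 2.33 in pair 6. The log2 fold change was -0.27 with a wide 95% interval from -1.09 to 0.56 (adjusted p = 0.885 in limma). With pair 6 left out it was -0.57 (adjusted p = 0.851), and with pair 1 left out it was -0.03. On the recovered reads of 9 dishes, edgeR put its log2 fold change at 0.15. Timp3 in library set 1 was lower in 3 of 3 pairs, as were 19.6% of all tested genes, with a paired log2 fold change of -0.80 (adjusted p = 0.382 in limma), and in library set 2 the value was 0.26 (adjusted p = 0.895). These responses differed by 1.06 on the log2 scale, the widest difference among the 6 members tested, which did not pass the threshold (adjusted p = 0.999 from limma's interaction test, and 0.757 when the pair entered it as well). Among all tested genes, 96.4% had a smaller SD of log2 values over the controls than Timp3, 96.0% a smaller one than Timp1 and 36.0% a smaller one than Timp2.

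Of the plasminogen activator system, Plau encodes urokinase, the protease itself. Plau (ENSMUSG00000021822.3, chromosome 14 from 20836660 to 20843385, plus strand) ranged from 661 to 1117 normalized counts in the ablation dishes, with a median of 913, and from 702 to 1078 in the controls, with a median of 883. The groups overlapped, and the log2 fold change was 0.05 (95% interval from -0.23 to 0.33, adjusted p = 0.950 in limma). The pairs divided by library set. In library set 1 Plau was higher after ablation in 3 of 3 pairs, as were 17.9% of all tested genes, and in library set 2 it was lower in 3 of 3 pairs, as were 17.8%. The paired log2 fold changes were 0.21 in library set 1 (adjusted p = 0.287 in limma) and -0.12 in library set 2 (adjusted p = 0.534). The difference between these responses was -0.33 on the log2 scale and did not pass the threshold (adjusted p = 0.999 from limma's interaction test). When the pair entered that test as well, the adjusted p-value was 0.538 and the unadjusted p-value 0.00866.

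Plaur encodes the receptor that anchors urokinase on the cell surface, and its promoter is the last of those printed. Plaur (ENSMUSG00000046223.10, chromosome 7 from 24462484 to 24475968, plus strand) ranged from 334 to 989 normalized counts in the ablation dishes, with a median of 828, and from 425 to 1070 in the controls, with a median of 598. Ablation 1 was the lowest and control 5 the highest of all 12 dishes, so the groups overlapped over most of their range, although the medians lay apart. The mean was 779 ± 233 normalized counts (SD, n = 6) in ablation dishes against 636 ± 228 in controls. The log2 fold change of 0.28 (95% interval from -0.30 to 0.86, adjusted p = 0.824 in limma) was the largest of the 6 members tested, and it corresponds to a fold change of 1.21 with an interval from 0.812 to 1.81. In the paired model the interval ran from -0.03 to 0.59 (adjusted p = 0.324).

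By pair, Plaur differed by -0.34 and -0.11 on the log2 scale in pairs 1 and 5, and by 0.53, 0.51, 0.67 and 0.42 in pairs 3, 4, 6 and 7. Within library set 2 the groups did not overlap, with 875, 775 and 782 normalized counts in ablation 4, 6 and 7 and 613, 487 and 583 in their controls, as was the case with ablation higher for 7.09% of all tested genes. Fitted on library set 2 alone, the paired model put the log2 fold change of Plaur at 0.53 (adjusted p = 0.0158 in limma), and Plaur alone of the 6 members passed there, against 0.79% of all genes. The controls of that set are those whose titles contain the word ablation. In library set 1 the log2 fold change was 0.02 (adjusted p = 0.963). There 0 of the 6 members passed, against 0.116% of all genes, and 1, Plau, had an unadjusted p-value under 0.05, against 13.9% of all genes. Between both sets the response of Plaur differed by 0.51 (adjusted p = 0.999 from limma's interaction test, and 0.603 when the pair entered it as well), so a different response was not shown.

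**Figure D3:**
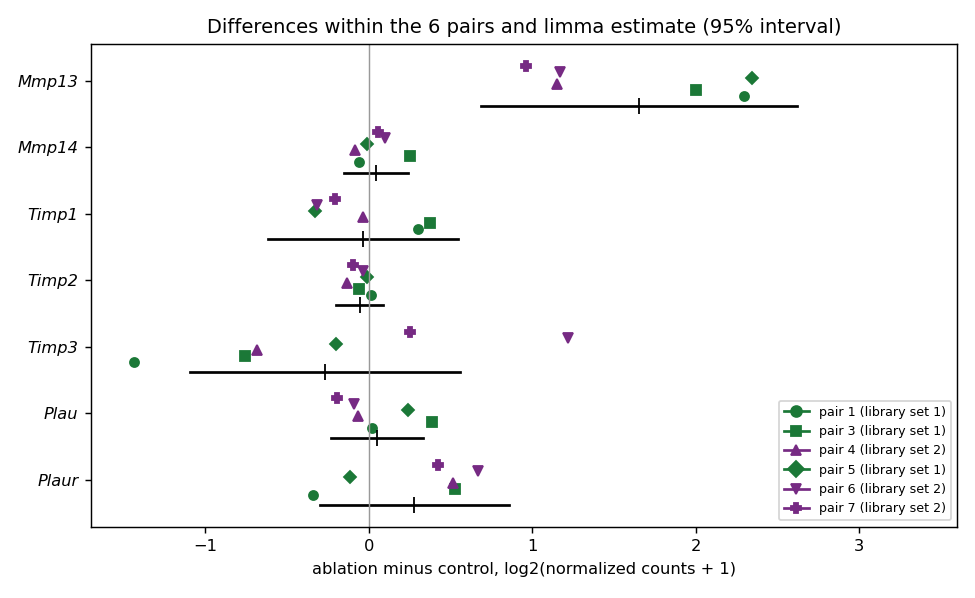
Difference between the ablation and the control dish of each pair in log2(normalized counts + 1), with symbols for the pairs (green, library set 1; purple, library set 2). The black line under each gene gives the limma estimate and its 95% interval in the library set model, for Mmp13 from the fit of all genes with any count. All symbols of Mmp13 lie above 0, those of Plau divide by library set, and those of Timp3 range from -1.44 to 1.22.

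The interaction test called 0 of the 6 members, against 0% of all genes, and 0 had an unadjusted p-value under 0.05, against 1.67%. When the pair entered that test as well, it called 0 members, against 0.00725% of all genes, and 2 (Plau and Plaur) had an unadjusted p-value under 0.05, against 7.88%. Levels of the members were also compared between the library sets, which also differ in dates and in most passages. Passage P2+15 occurs in both, in pair 5 of library set 1 and pair 4 of library set 2. Library set, passage and date were not separated here. None of the 6 members passed the threshold between the library sets (adjusted p from 0.455 to 0.987 in limma), against 0.95% of all genes, and 0 had an unadjusted p-value under 0.05, against 19.9%. As the dishes of a pair are not independent in this comparison, pair means were compared in addition, and 0 of the 6 passed (adjusted p from 0.712 to 0.993 in limma), against 0% of all genes, and no unadjusted p-value was under 0.05, against 9.38%. Timp1 and Timp3 had the largest of these differences, with log2 values that were 0.38 and 0.39 higher in library set 2. The value of Timp3 rested on single pairs, with 0.083 without pair 1 and 0.87 without pair 5. Without pair 5, 0 of the 6 members passed (lowest adjusted p = 0.131 in limma), against 6.13% of all genes, and 4 had an unadjusted p-value under 0.05, against 24.5%.

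The genes whose log2 values ran most closely with those of a member over the 12 dishes were listed as a description. The dishes share pairs and library sets, so these correlations have no independent replicates. Plaur ran closest with Areg (r = 0.98), Epha2 (r = 0.98) and Ereg (r = 0.96), and of these Areg and Ereg encode ligands of the EGF receptor. Areg showed the same extremes as Plaur, with its lowest value of 614 normalized counts in ablation 1 and its highest of 2829 in control 5. For Areg, Epha2 and Ereg the log2 fold changes after ablation were 0.51, 0.19 and 0.47 (adjusted p = 0.754, 0.798 and 0.712 in limma). Timp1 ran closest with Trim30d and Ifi44 (r = 0.95 and 0.94), Mmp14 with Sprr2f (r = 0.94), Timp2 with Smurf1 (r = 0.89), Timp3 with Krt80 (r = 0.89) and Plau with Dok7 (r = 0.88). Trim30d and Ifi44 were lowest in both dishes of pair 1, as was Timp1, and their correlations without pair 1 were not computed. Sprr2f (5.12 to 35.4 normalized counts) and Dok7 (4.94 to 20.7) had low counts. Among the members themselves, the highest correlation was that of Plaur with Timp1 (r = 0.73).

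The other genes of these systems were taken from a list of 69, all of which were in the table and 45 of which were tested. After ablation 0 of the 45 passed in limma, against 0% of all tested genes, and 0 passed with pairs, against 1.09%. Without pairs, the unadjusted p-value was under 0.05 for 3 genes, or 6.67% of the 45, against 7.85% of all tested genes. Their median log2 fold change was -0.02, beside -0.0036 for all tested genes, with 19 genes above 0 and 26 below. The medians of the groups lay between -0.11 for 7 matrix proteins and 0.04 for 10 ADAM and ADAMTS proteases.

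Of the 19 other metalloproteinases, 5 were tested and 4 were at 0 in all dishes. Mmp15, a membrane-anchored relative of Mmp14, had 7688 ± 985 normalized counts (SD, n = 6) in ablation dishes against 7921 ± 915 in controls (log2 fold change -0.04, adjusted p = 0.924 in limma). Mmp28, which encodes epilysin, had 1310 ± 146 and 1269 ± 112 (log2 fold change 0.04, adjusted p = 0.909). Mmp2, whose precursor MMP14 activates, had a log2 fold change of -0.15. Of the genes that act on metalloproteinases, Timp4 was at 0 in all dishes, and Bsg and Cd44 had log2 fold changes of -0.03 and 0.08.

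In the plasminogen system, 10 of 12 genes were tested, and Plg, which encodes plasminogen itself, was at 0 in all dishes. The most abundant were Anxa2, a cell surface protein that can bind plasminogen, and Serpinb2, which encodes plasminogen activator inhibitor 2. Serpinb2 had 41308 ± 6467 normalized counts (SD, n = 6) in ablation dishes against 36928 ± 3811 in controls and was higher in 5 of 6 pairs. Its log2 fold change of 0.15 did not pass the threshold (adjusted p = 0.633 in limma, and 0.133 with pairs). In the paired fit of all genes with any count, added after the data were seen, Serpinb2 passed the threshold (adjusted p = 0.0295). There 1.25% of all genes passed. Anxa2 had a log2 fold change of 0.02.

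Of 10 ADAM and ADAMTS proteases tested, Adam28 and Adam10 were the most abundant, with log2 fold changes of 0.09 and -0.01 (adjusted p = 0.891 and 0.982 in limma). Adam9, Adam15 and Adam17, named after their values were seen, were the 3 genes with an unadjusted p-value under 0.05 in the library set model. Of all tested genes, 7.85% had such a value. In the paired model, where 17.6% of all tested genes had one, Adam8, Adamts1, Serpinb2, Col17a1 and Tnc were under 0.05 as well. Adam17, which encodes the sheddase of TNF and EGF receptor ligands, had 3431 ± 43.2 normalized counts (SD, n = 6) in ablation dishes against 3628 ± 80.4 in controls, with no overlap between the groups, a pattern that 0.21% of all tested genes shared in this direction. Its log2 fold change was only -0.08 (adjusted p = 0.619 in limma, and 0.238 in the paired model). Adamts1, also named after its values were seen, had the largest log2 fold change of the 45 genes tested (0.53, adjusted p = 0.652 in limma) and was higher in 5 of 6 pairs. It did not pass in the paired model of all 6 pairs (adjusted p = 0.227 in limma). Without pair 1 the paired model gave it 0.71 (adjusted p = 0.0269), where 176 of 13792 genes passed. On library set 2 alone the paired model gave it 0.85 (adjusted p = 0.0106), where 0.79% of all genes passed.

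Among other pericellular proteases and inhibitors, 9 of 11 were tested. Ctsb, a lysosomal cysteine protease, and Spint2, an inhibitor of membrane-bound serine proteases, had log2 fold changes of -0.03 and -0.04. Of the matrix proteins that these enzymes cut, Col17a1, a collagen of hemidesmosomes, had 22269 ± 2706 normalized counts (SD, n = 6) in ablation dishes against 23878 ± 1779 in controls (log2 fold change -0.11, adjusted p = 0.777 in limma).

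**Figure D4:**
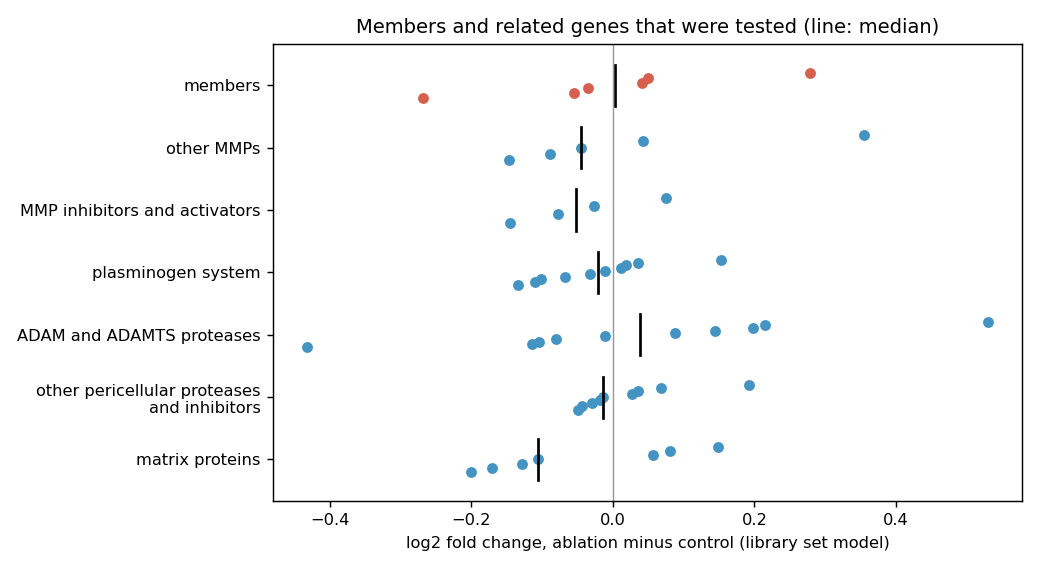
Log2 fold changes after ablation in the library set model (horizontal axis) of the 6 members (red) and the 45 related genes (blue) that were tested, by group on the vertical axis. Black lines mark the medians, which lie between -0.11 and 0.04, and 0 of these genes passed the threshold.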

How the data were processed

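RNA of 12 dishes was sequenced as stranded poly(A) libraries with paired-end reads of 75 bases. The authors processed reads with nf-core/rnaseq on the GENCODE annotation of GRCm38.p6 and normalized them in DESeq2 with condition and batch as factors, and bcl2fastq is named in the submitters' processing notes. The aligner, the counting tool and its strand setting are not given in the sources used here. The signal values used are the authors' normalized counts, in which reads of a library are scaled by its DESeq2 size factor. The deposited table also holds gene lengths, their mean counts, log2 fold changes, score columns (standard errors and Wald statistics) and p-values, of which only the lengths were used.

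Values of a library were whole multiples of a step (99.995% to 100% within 0.05). In 9 libraries the step gave back whole reads, and in 3 (ablation 3, ablation 4 and control 4) it lay too near 1 to be accepted by an automatic rule. Count models were therefore run on 9 libraries only, as an alternative with edgeR 4.0.16.

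Genes that reached 10 normalized counts in 6 libraries or more (13792 of 55401) were tested on log2(normalized count + 1) in limma 3.58.1 (R 4.3.3), with eBayes moderation (trend, robust), Benjamini-Hochberg adjustment over all tested genes and a threshold of 0.05. Fold changes on this scale understate changes of low genes. The authors' batch is not named and was taken as the library set. Genes under the minimum were compared by two-sided exact permutation tests (scipy 1.17.1). The fits were also run on simulated data, and how they fared there is not reported here. Pair means were added for the comparison of library sets, in which the dishes of a pair are not independent.

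Same-numbered dishes share passage, culture day and date by their titles. Their deviations from the group means correlated across genes with r from 0.21 to 0.62 in the 6 pairs, so the numbers were taken to pair the samples.

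The members, the related genes and the markers were chosen with earlier results of these data known. Named were all members, related genes past the threshold in either model, the 2 most abundant tested genes of each related group, and the 3 genes most like each member. Of the genes this rule names, 1 is not reported here. Exon overlaps were read from GENCODE M21, whose coordinates equal those of the table for all 9 members. Protein sequences were not used here. Alternatives were other pseudocounts (0.5 and 5), no filter, no second factor, plain eBayes, quantile and TMM normalization, pairs left out, single library sets and edgeR.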

Additional observations from a re-analysis of the deposited data

Results flagged for a closer look

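The highest and lowest dish of each group were checked for a gap to the nearest other dish, over 41 groups of 6 dishes with any spread, and 7 far dishes were found. Chance alone flags about 1 in 20 groups where values are normally spread, and this rate need not hold for counts of a few reads. Ablation 5 stood far above the other ablation dishes in Mmp13 (23.5 normalized counts), Mmp10 (8.45) and Mmp9 (2.82). Mmp9 was above 0 in this dish alone, which fixes its flag in advance, and its value lay within what a count of 0 allows. In Plaur, ablation 1 was far lower than the rest of its group (334 normalized counts) and control 5 far above the other controls (1070). Of the related genes, Spint2 was far lower in control 3 (9133 normalized counts) and Bsg far higher in ablation 1 (18007) than in the other dishes of their groups.

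Plau was higher after ablation in all 3 pairs of library set 1 and lower in all 3 pairs of library set 2. The difference between these responses was -0.33 on the log2 scale. In limma's interaction test it had an adjusted p-value of 0.999, and of 0.538 with the pair as a term.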

How the results depend on the processing

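Of 162 values computed for the log2 fold changes of the 6 tested members under the alternatives, 149 kept their direction and their side of the threshold, 12 changed sign and 1 passed the threshold (Plaur in library set 2 alone, 0.53). In the library set model, 0 genes and 0 members passed with any pair left out, and 3 genes passed with no filter on low counts. Under the replicate block, with the pair as a factor and no library set, 150 genes passed, with 168 after quantile and 152 after TMM normalization, 356 with no filter, 16 in library set 1 alone and 109 in library set 2 alone, and with a pair left out 176 (pair 1), 90 (pair 3), 8 (pair 4), 77 (pair 5), 106 (pair 6) and 140 (pair 7). With plain eBayes the replicate block called 0. The replicate block changed the call of 0 of the 6 members, called 1 member in library set 2 alone (Plaur) and 1 with no filter (Mmp13), and called 1 related gene without pair 1 and in library set 2 alone (Adamts1) and 1 with no filter (Serpinb2), with 0 to 1 over the pairs left out. The quantile, TMM and unfiltered forms of the block were added after the data were seen, as were pair means.

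The sign of a log2 fold change turned for Mmp14 without pair 3 (-0.00013 to 0.067 over the pairs left out), for Timp1 without pair 5 (0.024) or 6 (0.021, with a range from -0.12 to 0.024) and in library set 1 alone (0.12), for Plau without pair 3 (-0.018 to 0.098) and in library set 2 alone (-0.12), and for Timp3 in library set 2 alone (0.26) and with edgeR on recovered reads (0.15). For Mmp13 the difference in mean log2 value stayed between 1.51 and 1.79 with a pair left out (exact permutation p from 0.00794 to 0.0397). It was 0 to 0.39 for Mmp9 and 0.16 to 0.46 for Mmp10.

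Between the library sets 131 genes differed in the fit that takes dishes as independent, and 32 with plain eBayes. Pair means gave 0, and leaving a pair out gave 0 (without pair 3, 6 or 7) to 846 (without pair 5). The differences of the members ranged from -0.047 to 0.64 for Timp1, -0.035 to 0.12 for Timp2, 0.083 to 0.87 for Timp3, 0.019 to 0.20 for Mmp14, -0.22 to 0.064 for Plau and -0.40 to 0.32 for Plaur. A different response in the library sets was called for 0 genes, and for 1 under the replicate block. The causes of these changes were not tested. Counts under 10 limit Mmp9, Mmp10 and Mmp13.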
